A study of Mus musculus with 6 samples.

Results

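The antiviral effector genes *Ifit1*, *Ifit2*, *Ifit3*, *Oas2*, *Oas3*, *Oasl1*, *Oasl2*, *Mx1*, *Mx2* and *Rsad2* were chosen by name, and each was read from the probe set that the platform annotation paired with that symbol alone. All 10 had exactly 1 such probe set, none was read only through a shared probe set, and they were 10 of the 19938 genes that could be read from such a probe set. The samples were bone marrow-derived macrophages (BMMs), grown from the tibiae of mice with M-CSF, which drives macrophage growth. The labels give the mice as 9 weeks old, whereas the study's methods give a range that ends at that age. The study worked with female C57BL mice. Both groups were then kept for 24 h in M-CSF (100 ng ml−1) together with RANKL (50 ng ml−1), the cytokine that turns macrophages into osteoclasts. The vehicle group received nothing further (called RANKL below), and the other group also received recombinant GDF11 at 100 ng ml−1 (RANKL + rGDF11), a secreted protein of the TGF-β superfamily. There were 3 samples in each group, labelled as biological replicates, and the arrays were of the Affymetrix type Mouse Gene 1.0 ST, with 1 per sample. The sources used here do not give whether different mice supplied them, so p-values refer to the spread among these samples.

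Type I interferons bind a receptor that activates the kinases Jak1 and Tyk2, and a complex that holds Stat2 and Irf9 then binds the interferon-stimulated response element (ISRE) in target promoters. The genes described here are among the classic targets, and their products act on viral RNA, on its translation or on viral assembly. Macrophages keep a low tonic interferon response without infection, and interferon restrains osteoclast formation.

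Sequence around the ISRE is shown first because it is what several of these genes share besides their behaviour on the arrays. The RefSeq promoter table (GRCm38.p6) held windows from 250 bases before to 50 bases after the start for 7 of the 10 genes, and *Oas2*, *Mx1* and *Mx2* had no entry. The core searched on both strands was GAAANNGAAA, which reads TTTCNNTTTC on the other strand. It was present in 4 of the 7 genes, against 3.99% of 27025 genes with a window and 3.44% of 32851 windows. The stretches below run from 20 bases before to 20 bases after the matches, 5′ to 3′ on the strand of the gene, with the matches in capitals.

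Ifit1 (chr19:34640765-34640833, plus strand): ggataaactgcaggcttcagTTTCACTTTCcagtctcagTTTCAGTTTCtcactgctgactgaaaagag

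Ifit3 (chr19:34583353-34583436, plus strand): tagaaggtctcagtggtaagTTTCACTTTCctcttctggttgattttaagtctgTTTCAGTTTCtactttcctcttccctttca

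Oas3 (chr5:120777705-120777754, minus strand): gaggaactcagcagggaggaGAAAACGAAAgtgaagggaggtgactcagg

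Rsad2 (chr12:26456543-26456592, minus strand): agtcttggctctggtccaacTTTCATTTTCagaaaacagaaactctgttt

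*Ifit1* and *Ifit3* each held 2 matches, an arrangement found in 0.266% of genes, and *Oas3* and *Rsad2* held 1 each. The matches began 104 and 85 bases before the start in *Ifit1*, 156 and 122 bases before it in *Ifit3*, 75 in *Oas3* and 120 in *Rsad2*. The same stretch of *Ifit3* recurred in its close relative *Ifit3b*, with 84 of 84 bases alike. The *Ifit1* stretch also lies in a window of *Ifit1bl2*, a gene read from the opposite strand. Both stretches are the same 69 bases at the same place in the genome, and not separate copies. The core did not occur in the windows of *Ifit2*, *Oasl1* and *Oasl2*. The GAS core TTCNNNGAA, the element best known from the interferon-γ response, was present in *Ifit2* alone of the 7, against 9.55% of genes. The NF-kB motif was present in *Ifit2*, *Oas3* and *Oasl1*, against 9.55% of genes, and in *Ifit2* it overlapped the GAS match. A match is a run of letters and not a bound site, and binding was not measured here.

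All 10 genes fell when rGDF11 was added. The median log2 difference (RANKL + rGDF11 minus RANKL) was −2.36, or 5.12-fold lower, against 0.024 over all 23410 probe sets tested. In a limma fit adjusted by the Benjamini-Hochberg method over those probe sets, 10 of 10 passed at an adjusted p under 0.05 in the downward direction, where 8.64% of all probe sets did. At the threshold of the study's methods, a 1.5-fold change with p under 0.01 before adjustment, 10 of 10 were lower, against 2.96%. Every RANKL + rGDF11 array read below every RANKL array for 10 of 10 genes, against 16.5% of probe sets. The distance between the groups, from the lowest RANKL array to the highest RANKL + rGDF11 array, ran from 1.53 for *Mx2* to 2.88 for *Rsad2*. A single gene compared by an exact permutation test of 3 arrays against 3 cannot go below a two-sided p of 0.1, and each of the 10 reached it. In bulk RNA, fewer cells of a type and less RNA per cell cannot be told apart.

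**Figure D1:**
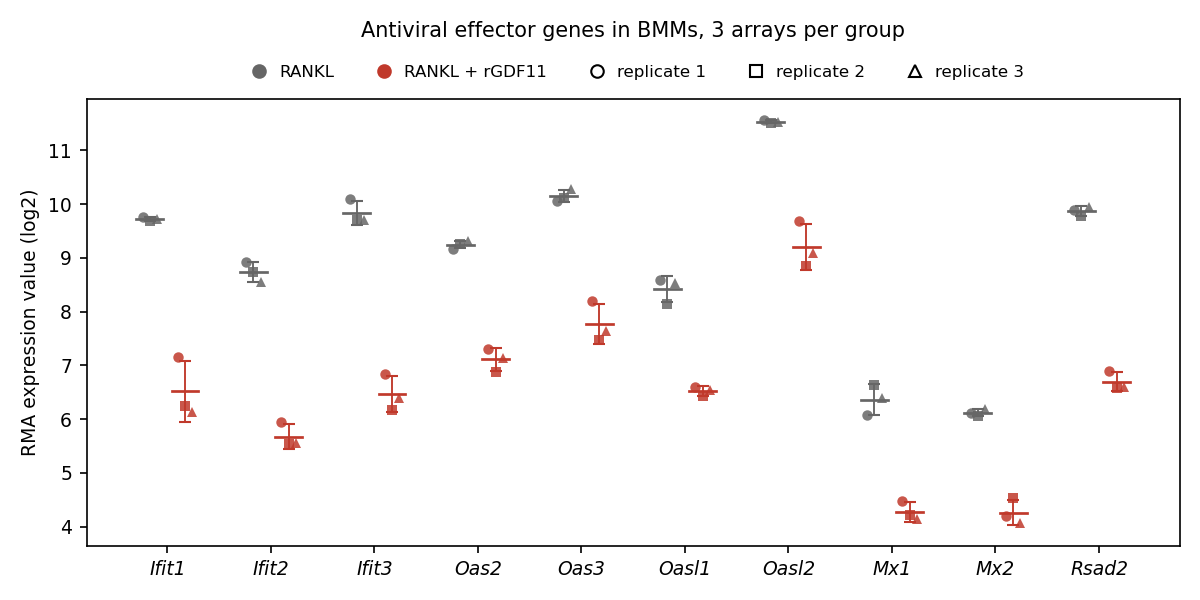
RMA expression values (log2, vertical axis) of the 10 effector genes after 24 h, with RANKL arrays in grey and RANKL + rGDF11 arrays in red. Symbols are single arrays, and bars give the mean and SD per group. No gene has overlapping groups, and replicate 1 (circle) is the highest RANKL + rGDF11 array for all but *Mx2*.

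The 3 Ifit genes had 3 of the 4 largest falls among the 10. Their products are tetratricopeptide repeat proteins that bind foreign RNA or the translation machinery. *Ifit1* (probe set 10462623, chromosome 19), whose product binds the cap of viral RNA that lacks the host's methyl marks, had log2 values of 9.76, 9.69 and 9.71 on RANKL arrays 1 to 3 and 7.16, 6.24 and 6.14 on RANKL + rGDF11 arrays 1 to 3. The RANKL arrays lay close together, and RANKL + rGDF11 replicate 1 stood above the other two without reaching the RANKL range. The mean went from 9.72 ± 0.039 to 6.52 ± 0.56 (SD, n = 3 arrays per group), 9.22-fold lower (log2 difference −3.21, 95% confidence interval −3.77 to −2.65; limma, adjusted p = 0.000105).

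*Ifit2* (probe set 10462613, chromosome 19), whose product binds AU-rich RNA, read 8.93, 8.75 and 8.56 with RANKL and 5.94, 5.53 and 5.55 with RANKL + rGDF11. Both groups spread to a similar extent, and they stayed far apart. The mean went from 8.74 ± 0.18 to 5.68 ± 0.23, 8.39-fold lower (−3.07, −3.38 to −2.75; limma, adjusted p = 1.36e-05). *Ifit3* (probe set 10462618, chromosome 19), whose product partners the other Ifit proteins, read 10.09, 9.71 and 9.70 with RANKL and 6.84, 6.16 and 6.40 with RANKL + rGDF11. Replicate 1 was the highest array in each of its groups. With a 10.3-fold lower level and a log2 difference of −3.36 (−3.78 to −2.95; limma, adjusted p = 2.71e-05), *Ifit3* fell most of the 10 and had the third lowest difference of all 19938 genes. *Ifit1* ranked 4 and *Ifit2* ranked 7 by the same measure.

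*Rsad2* (probe set 10399710, chromosome 12) encodes viperin, a radical SAM enzyme that turns CTP into a chain terminator for viral polymerases. Its log2 values were 9.89, 9.78 and 9.96 with RANKL and 6.91, 6.58 and 6.61 with RANKL + rGDF11. The widest distance between groups among the 10 genes was its own. The mean went from 9.88 ± 0.088 to 6.70 ± 0.18, 9.05-fold lower (−3.18, −3.41 to −2.94), and its adjusted p was the lowest of the 10 (limma, adjusted p = 3.31e-06).

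The oligoadenylate synthetases Oas2 and Oas3 sense double-stranded RNA and make the small messenger 2-5A, which leads to the cutting of RNA. *Oas2* (probe set 10533198, chromosome 5) read 9.17, 9.26 and 9.32 with RANKL and 7.31, 6.87 and 7.15 with RANKL + rGDF11. *Oas3* (probe set 10533213, chromosome 5) read 10.07, 10.12 and 10.28 with RANKL and 8.19, 7.48 and 7.64 with RANKL + rGDF11. For both, replicate 1 was the highest RANKL + rGDF11 array, and the groups stayed apart. *Oas2* was 4.40-fold lower (log2 difference −2.14, −2.40 to −1.88; limma, adjusted p = 2.63e-05). *Oas3* was 5.22-fold lower (−2.38, −2.78 to −1.99; limma, adjusted p = 8.96e-05).

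The Oas-like genes lie elsewhere on chromosome 5. *Oasl1* (probe set 10524631), whose product lacks the synthetase activity and holds back production of Irf7, read 8.59, 8.14 and 8.53 with RANKL and 6.59, 6.43 and 6.55 with RANKL + rGDF11. *Oasl2* (probe set 10524621), whose product keeps the synthetase activity, read 11.57, 11.51 and 11.52 with RANKL and 9.69, 8.85 and 9.09 with RANKL + rGDF11. *Oasl1* varied more among the RANKL arrays, and *Oasl2* among the RANKL + rGDF11 arrays. *Oasl1* was 3.72-fold lower (−1.90, −2.18 to −1.61; limma, adjusted p = 5.54e-05). *Oasl2* was 5.02-fold lower (−2.33, −2.77 to −1.89) and had the highest adjusted p of the 10 (limma, adjusted p = 0.000147).

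Mx proteins are dynamin-like GTPases that trap viral nucleocapsids. Laboratory strains such as C57BL carry defective alleles of both genes, and the RefSeq table classes *Mx1* and *Mx2* as transcribed pseudogenes, whereas the other 8 genes are classed as protein coding. Their transcripts were measured all the same. *Mx1* (probe set 10441233, chromosome 16) read 6.07, 6.64 and 6.39 with RANKL and 4.48, 4.21 and 4.14 with RANKL + rGDF11. *Mx2* (probe set 10437224, chromosome 16) read 6.11, 6.06 and 6.19 with RANKL and 4.20, 4.53 and 4.07 with RANKL + rGDF11. The groups did not overlap for either gene, and *Mx2* was the one gene of the 10 whose highest RANKL + rGDF11 array was replicate 2. *Mx1* was 4.26-fold lower (−2.09, −2.44 to −1.74; limma, adjusted p = 8.96e-05), and *Mx2* was 3.62-fold lower (−1.86, −2.13 to −1.59; limma, adjusted p = 5.07e-05), the smallest fall of the 10. The deposited values carry no detection calls, so whether the low Mx values with rGDF11 still stood above background is not known, and a fold change is understated where they did not.

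**Figure D2:**
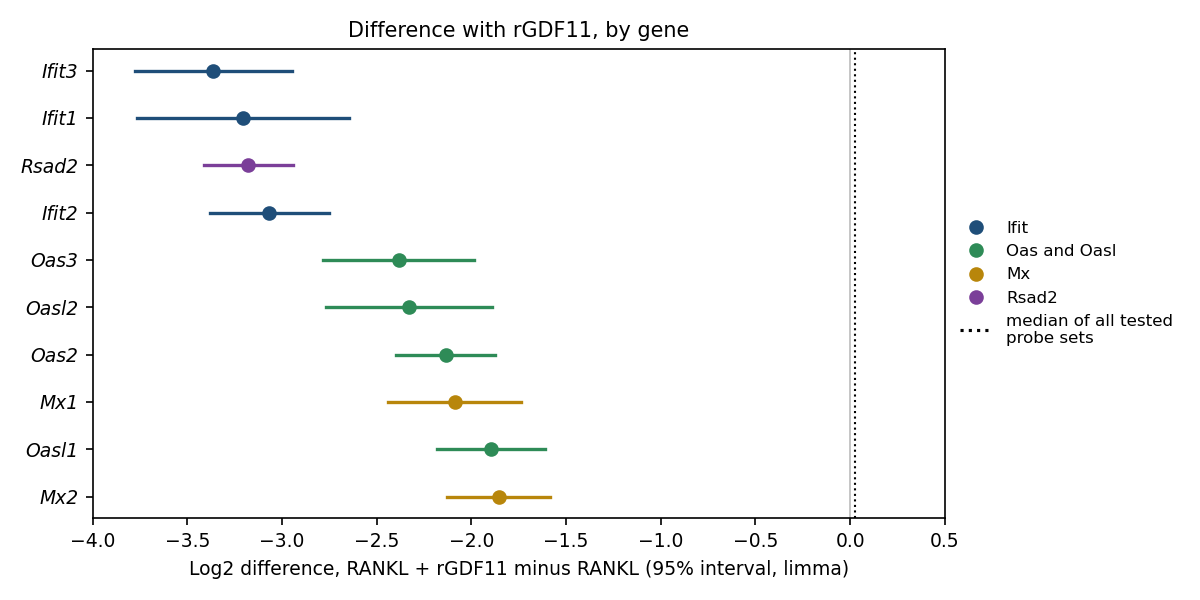
Log2 difference (RANKL + rGDF11 minus RANKL, horizontal axis) of the 10 genes, ordered by size, with limma's 95% confidence intervals from 3 arrays per group; the dotted line is the median of all probe sets tested, 0.024. The Ifit genes and *Rsad2* lie between −3.36 and −3.07, and the Oas, Oasl and Mx genes between −2.38 and −1.86.

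The falls spanned 3.62-fold to 10.3-fold, a 2.84-fold range. As the plot of differences with their intervals shows, *Ifit3*, *Ifit1*, *Rsad2* and *Ifit2* had intervals that overlapped each other. The intervals of *Ifit3* (upper bound −2.95) and *Rsad2* (−2.94) lay wholly below those of the 6 Oas, Oasl and Mx genes, whose lowest bound was −2.78, in *Oas3*. Those of *Ifit1* and *Ifit2* reached into the intervals of *Oas3* and *Oasl2*. No test was made between probe sets, and RMA values can compress folds to an extent that differs from gene to gene.

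Within groups the 10 genes varied more than most. Their residual SD ran from 0.14 to 0.40 on the log2 scale, against a median of 0.11 and a 90th percentile of 0.20 over all probe sets. The SD was larger with rGDF11 for 8 of 10 genes, the exceptions being *Oasl1* and *Mx1*, against 49.6% of all probe sets and 30 of the 40 pathway genes outside the 10 that fell. RANKL + rGDF11 replicate 1 was the highest array of its group for 9 of 10 genes, against 31.0% of all probe sets and 30 of the 40 pathway genes outside the 10 that fell. On average it stood 0.28 above the group mean of each gene. RANKL + rGDF11 replicates 2 and 3 stood 0.16 and 0.12 below it. The 3 RANKL arrays stayed within 0.038 of their group means on the same average, and they were the highest of their group for 5, 1 and 4 genes. Without RANKL + rGDF11 replicate 1 the median difference was −2.58, and 10 of 10 genes passed limma's test.

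**Figure D3:**
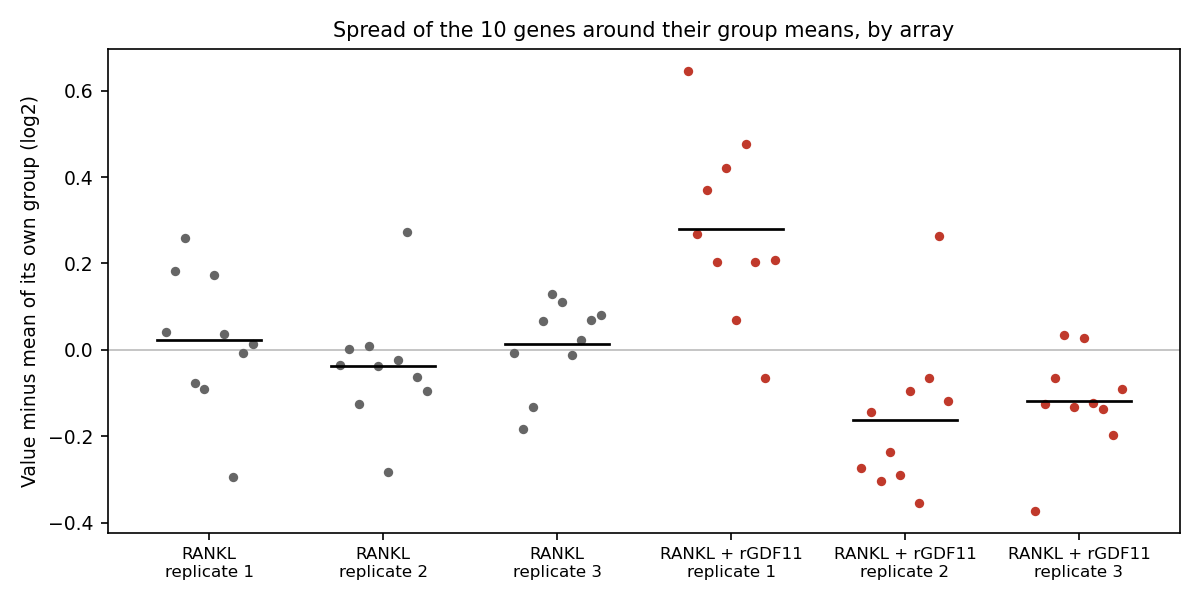
Value minus the mean of its own group (log2, vertical axis) for the 10 genes on each array, with 1 point per gene and the mean over genes as a line. On RANKL + rGDF11 replicate 1, 9 of 10 genes lie above 0 with a mean of 0.28, and on replicates 2 and 3 the means are −0.16 and −0.12.

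The other genes of the Ifit and Oas families were then read in the same way. Of 11 listed, 9 could be read from their own probe set, and 6 of those fell, none rose and 3 did not pass limma's test. *Ifit3b* fell by 2.05 on the log2 scale, from 5.01, 5.35 and 5.41 to 3.15, 2.99 and 3.48. *Oas1a*, an active synthetase, fell from 9.28, 9.13 and 9.25 to 7.89, 7.43 and 7.68, a log2 difference of −1.55. The rest of the falling genes were *Oas1b* (−1.39), *Oas1c* (−1.08), *Ifit1bl2* (−0.92) and *Oas1h* (−0.29; limma, adjusted p = 0.0230). *Oas1d* (0.30, adjusted p = 0.428), *Oas1e* (0.06, adjusted p = 0.711) and *Oas1f* (0.02, adjusted p = 0.884) missed limma's threshold. Their RANKL means were only 3.27, 3.34 and 4.27. *Oas1h*, *Ifit1bl2* and *Ifit3b* had RANKL + rGDF11 means as low, at 3.33, 2.90 and 3.21. Without detection calls, whether such values stood above background is not known, so the 6 and the 3 need not differ in response. *Oas1g* and *Ifit1bl1* had no probe set of their own, and a probe set shared by *Oas1a* and *Oas1g* fell by 1.51. With 1 array left out the count of 6 was 5 in 5 of the 6 fits. The ISRE core was present in 6 of the 8 family genes with a promoter window and absent from the windows of *Oas1f* and *Oas1h*. It stood in *Oas1a*, *Oas1c*, *Oas1g*, *Ifit1bl1*, *Ifit1bl2* and *Ifit3b*. For *Ifit1bl2* the core is the DNA already printed for *Ifit1*, read from the other strand. In *Oas1c*, *Oas1a* and *Oas1g* it stood as 2 overlapping matches. The stretch of *Oas1c* is shown here, with the matches in capitals, because the arrangement differs from the separate matches of the Ifit genes.

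Oas1c (chr5:120812593-120812648, minus strand): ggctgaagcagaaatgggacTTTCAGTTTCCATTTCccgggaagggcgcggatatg

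Probe sets of such near-identical copies can pick up each other's transcripts, so the values of *Ifit3* and *Ifit3b*, and of the Oas1 genes, are uncertain to that extent. Further along the synthetase pathway *Pde12*, whose product degrades 2-5A, had a difference of 0.06 (adjusted p = 0.664), and *Abce1*, a ribosome recycling factor that also restrains this pathway, rose by 0.26 (limma, adjusted p = 0.0260). The call of *Abce1* was lost whichever of the 6 arrays was left out.

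Along the route from interferon to these effectors, none of the ligand genes passed limma's adjusted test and the receptor genes had small differences. Of the 10 interferon genes that could be read on their own none passed limma's test (0 of 10 at an adjusted p under 0.05, 0 at an unadjusted one, and 0 by the methods' t-test after adjustment), and their differences lay between −0.25 and 0.096. *Ifnb1*, for interferon-β, read 4.58, 4.59 and 4.71 with RANKL and 4.79, 4.60 and 4.65 with RANKL + rGDF11. The groups overlapped (0.05, −0.12 to 0.22; limma, adjusted p = 0.734). Another 3 probe sets shared among interferon-α genes had differences of 0.12, 0.12 and −0.08 and did not pass either. Protein was not measured, and values this low carry no detection call, so these numbers do not show that interferon levels were alike.

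Among 7 receptor and kinase genes, *Tyk2* (−0.32) and *Ifngr1* (−0.24), for a chain of the interferon-γ receptor, fell and the others did not pass. *Ifnar1* (−0.18, −0.34 to −0.02; limma, adjusted p = 0.137) and *Ifnar2* (−0.18, −0.33 to −0.04; adjusted p = 0.0986), the chains of the type I receptor, had groups that did not overlap. *Jak1* (−0.18), *Jak2* (0.21) and *Ifngr2* (0.01) were the others. At an unadjusted p under 0.05 there were 6 of 7, all but *Ifngr2*, and of these *Jak2* was higher. For 5 of 7 every RANKL + rGDF11 array read below every RANKL array, against 16.5% of all probe sets. The count of 2 was 0 or 1 whichever array was left out and 5 with a mean-variance trend, so these small differences sit at the edge of the test.

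The transcription factors split. Of 8 measured, *Irf7*, the factor that amplifies interferon production, *Stat2*, *Irf1* and *Irf9* fell, and *Irf2*, *Irf3*, *Irf5* and *Irf8* did not pass. *Irf7* read 10.03, 9.69 and 9.88 with RANKL and 7.46, 6.92 and 7.12 with RANKL + rGDF11, 6.51-fold lower (−2.70; limma, adjusted p = 2.74e-05). *Stat2* read 9.89, 9.77 and 9.85 with RANKL and 8.10, 7.90 and 8.06 with RANKL + rGDF11, 3.52-fold lower (−1.81; limma, adjusted p = 1.12e-05). Both had groups far apart, as the 10 effectors did. *Irf1* fell by 0.92 and *Irf9*, the DNA-binding partner of Stat2, by 0.72, while *Irf2* (−0.10), *Irf3* (0.11), *Irf5* (−0.03) and *Irf8* (0.12) had adjusted p between 0.319 and 0.861. Of 6 negative regulators, *Usp18*, which removes Isg15 from proteins and shuts off the type I receptor, fell by 2.44 and *Ptpn6* by 0.28, *Socs3* rose by 0.57, and *Ptpn2* (0.20), *Socs1* (−0.02) and *Pias1* (−0.04) did not pass. The call of *Socs3* was lost with the methods' t-test and with the mean over its probe sets, and that of *Ptpn6* in 5 of the 6 fits that left out 1 array.

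Sensors and fellow effectors fell beside them. Of 14 sensors and adaptors 9 fell and none rose, led by the nucleic acid sensor *Zbp1* (−2.28) and the RNA helicases *Dhx58* (−2.00), *Ddx58*, which encodes RIG-I (−1.88), and *Ifih1*, which encodes MDA5 (−1.43). *Mavs* (−0.18), *Tlr9* (0.08), *Mb21d1* (−0.25), *Tmem173* (−0.10) and *Ticam1* (−0.28) did not pass. At an unadjusted p under 0.05 there were 12 of 14, with *Mavs*, *Mb21d1* and *Ticam1* added. For 13 of 14, all but *Tlr9*, every RANKL + rGDF11 array read below every RANKL array, against 16.5% of all probe sets. The count of 9 was 8 to 11 in the alternatives. Of 20 other antiviral effectors 17 fell, led by *Cmpk2*, a mitochondrial nucleotide kinase (−2.68), *Rtp4* (−2.39), the RNA exonuclease gene *Isg20* (−2.28) and *Ifitm6* (−2.27). *Ifi27* rose by 0.35, a call lost in 5 of the 6 fits that left out 1 array, and *Ifitm1* (0.17) and *Apobec3* (−0.20) did not pass. *Isg15* and *Ifi44* had no probe set of their own, and a probe set shared by *Isg15* and *Gm9706* fell by 1.33. Over these lists together, 40 of 76 genes outside the 10 fell and 3 rose, with a median of −0.28, where 8.64% of all probe sets fell and 7.31% rose. No gene of these lists fell as far as *Ifit2*. *Irf7* (−2.70), *Cmpk2* (−2.68) and *Usp18* (−2.44) fell further than every Oas, Oasl and Mx gene of the 10, so falls of this size were not particular to the 10.

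**Figure D4:**
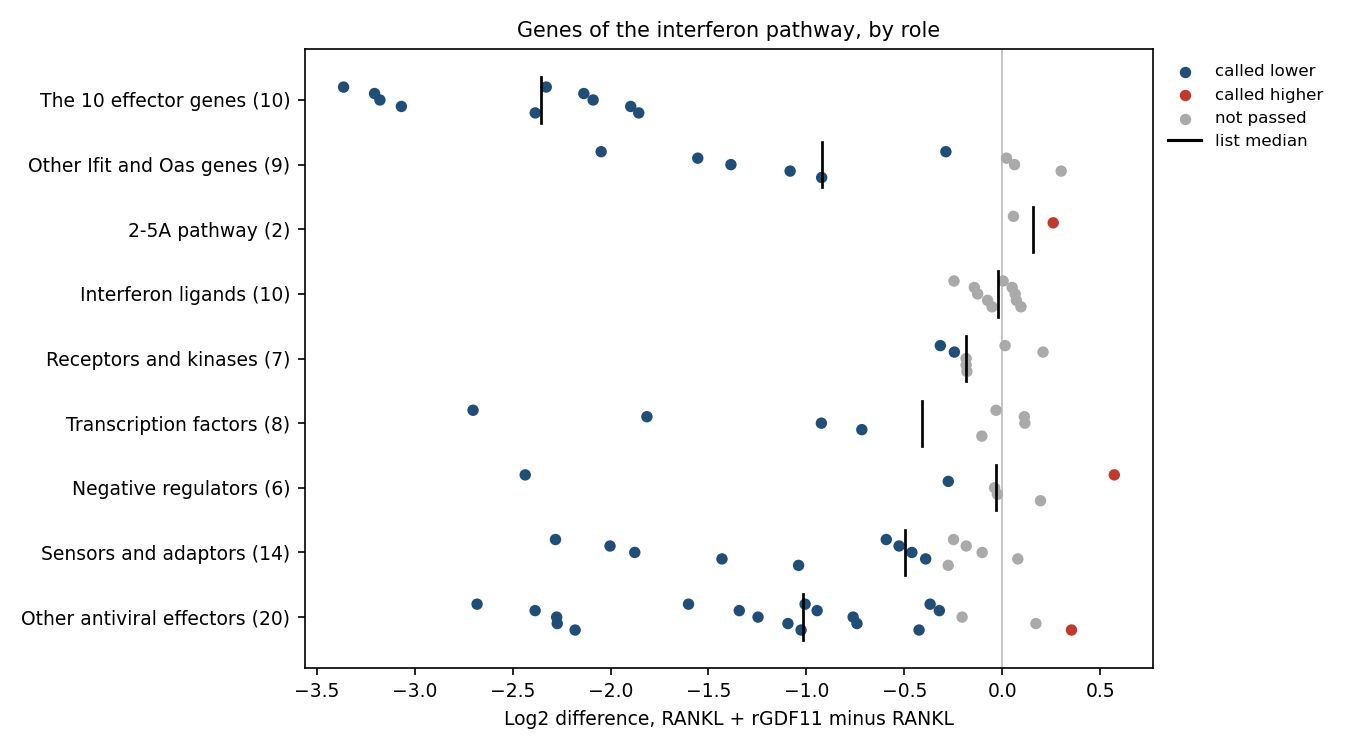
Log2 difference (RANKL + rGDF11 minus RANKL, horizontal axis) of the 10 effector genes and of 76 other interferon pathway genes by role, 1 point per gene, with the number of measured genes in parentheses and list medians as black lines. The 10 effectors lie at or below −1.86, the 10 interferon ligands lie between −0.25 and 0.096, and 17 of 20 other effectors are lower.

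The genes whose profile over the 6 arrays was most like the mean profile of the 10 were ranked by the root mean square difference after centring each gene. They were *Pltp*, for phospholipid transfer protein (0.065 on the log2 scale), *Slfn5*, a Schlafen gene (0.089), *Folr2*, for a folate receptor (0.12), *Irf7* (0.12) and *Phf11d* (0.12). *Pltp* read 10.92, 10.94 and 11.02 with RANKL and 8.53, 8.20 and 8.24 with RANKL + rGDF11. Of the 10 effectors themselves, *Oas3* (0.13) lay nearest to their mean profile and *Ifit3* (0.43) farthest. With groups this far apart, the measure depends mostly on how near the fall of a gene was to the mean fall of the 10. *Pltp* had a log2 difference of −2.63, whereas *Ifit3* and *Mx2* (0.42) had the largest and smallest falls of the 10.

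The genes sit in 5 places in the genome, and their neighbours, up to 4 measured genes on each side in RefSeq order, were examined after the values were known. Of 37 neighbours outside the Ifit and Oas families 5 fell, 3 rose and 29 did not pass limma's test, against 8.64% lower and 7.31% higher among all probe sets. Beside the Ifit genes *Ch25h*, which encodes the hydroxylase that makes an antiviral oxysterol, went from 7.28, 7.03 and 7.08 to 10.33, 10.35 and 10.30. It rose 9.18-fold (log2 difference 3.20; limma, adjusted p = 1.51e-06), opposite to *Ifit2*, which lies 2 measured genes away. *Acta2* (0.90) rose there too, and *Fas* (−0.91), *Lipa* (−0.50) and *Slc16a12* (−0.59) fell.

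At the Mx genes none of 9 neighbours passed limma's test at an adjusted p under 0.05. At an unadjusted p under 0.05 there were 2, *Prdm15* (0.29) and *Fam3b*, which lies between *Mx1* and *Mx2* and had a difference of −0.29 (limma, adjusted p = 0.0939). The 4 genes counted beside *Oas2* and *Oas3* all lie on 1 side, and none passed with or without adjustment. On the other side lie Oas1 genes, of which *Oas1c* (−1.08) and *Oas1b* (−1.39) fell and *Oas1e* and *Oas1f* did not pass. Of the 8 beside the Oas-like genes 1, *2610524H06Rik* (−0.33), fell. Next to *Rsad2*, *Cmpk2* fell from 9.46, 9.37 and 9.47 to 7.14, 6.33 and 6.79, and *Id2* (0.78) rose. Every RANKL + rGDF11 array read below every RANKL array for *Cmpk2*, as for *Rsad2*.

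**Figure D5:**
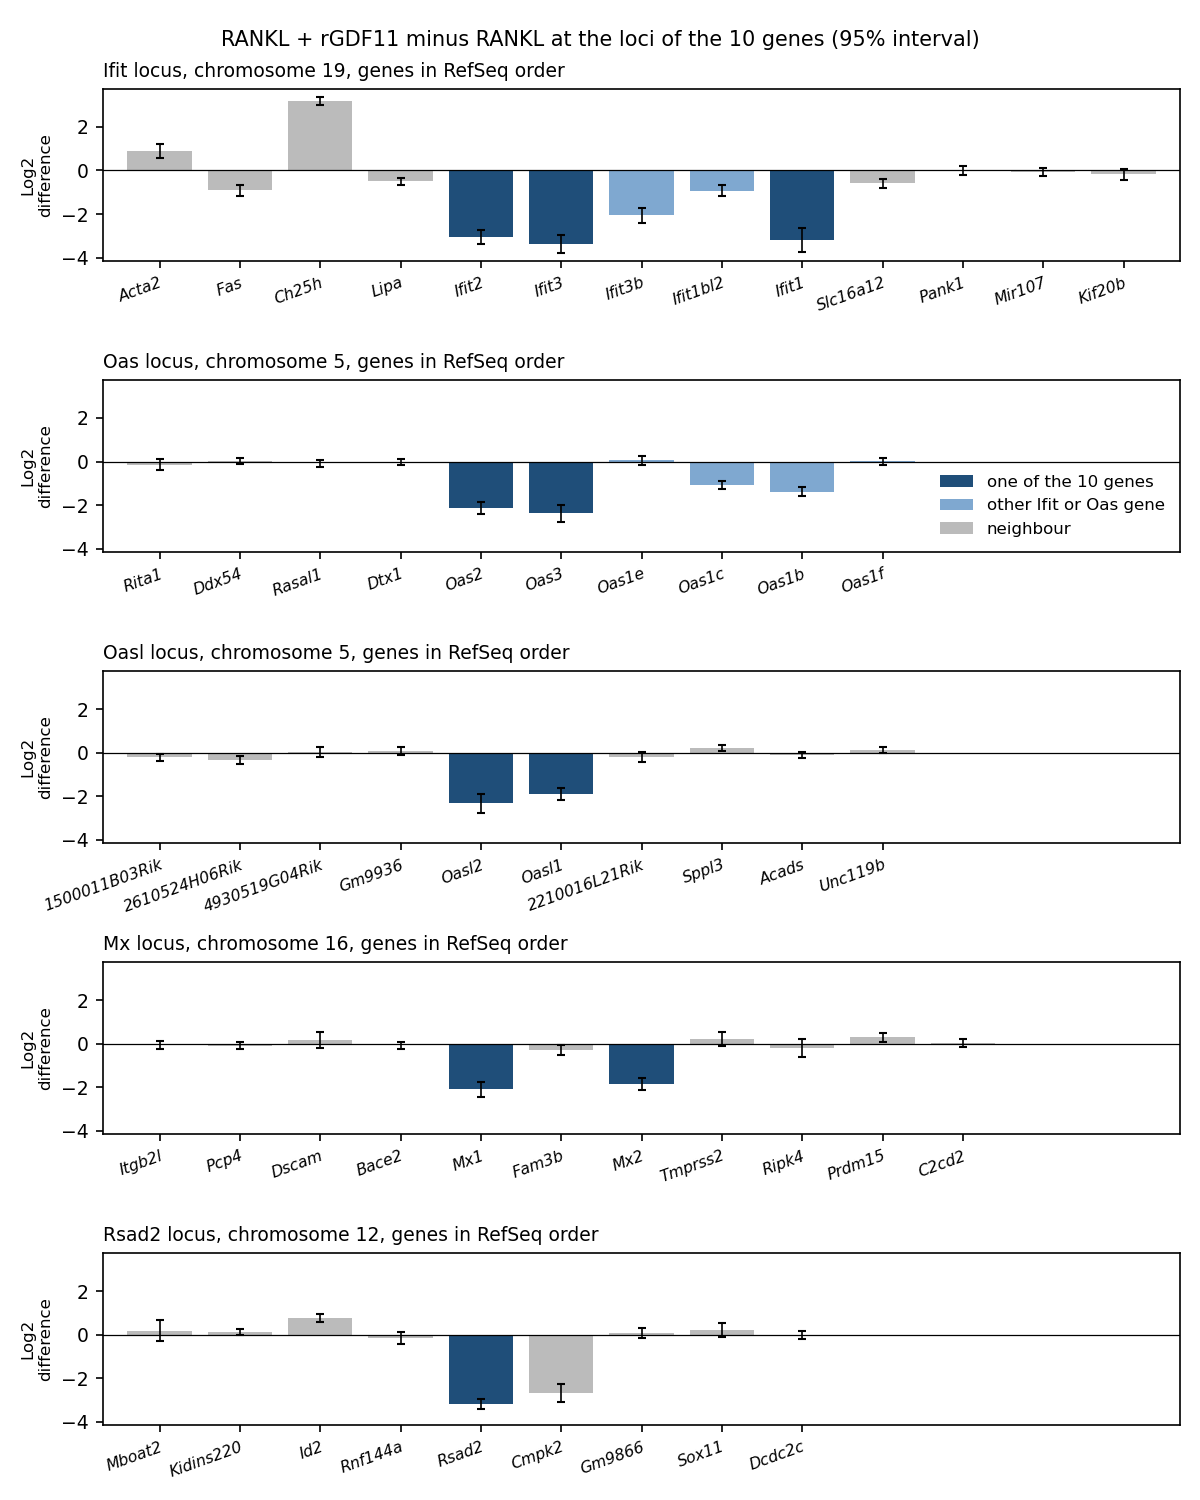
Log2 difference (RANKL + rGDF11 minus RANKL, vertical axes) of the 10 genes (dark blue), other Ifit and Oas genes (light blue) and their measured neighbours (grey) in RefSeq order, 1 panel per locus, with limma's 95% confidence intervals from 3 arrays per group. *Ch25h* rose by 3.20 beside the falling Ifit genes, and *Cmpk2* fell by 2.68 beside *Rsad2*.

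The ISRE core was also counted over all measured genes with a promoter window, after their calls were known. It was present in 23.4% of 188 genes called lower with a fall of 2-fold or more, and in 8.02% of all 1472 called lower. The share was 2.63% of 1177 called higher and 3.53% of 12965 that did not pass. The first group holds the 4 effectors whose stretches are printed above and their relatives *Ifit3b*, *Oas1a* and *Oas1c*. The groups were formed from calls on these same arrays, so the shares are a description. Whether the core had a part in the fall was not tested.

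The state of the cultures was checked with the same fit. *Pmepa1* (4.72) and *Smad7* (1.55), feedback genes of TGF-β signalling, and the osteoclast gene *Acp5* (1.87) rose, and *Actb*, *Hprt*, *Tbp*, *Ppia* and *Ywhaz* had differences from −0.11 to 0.11 and did not pass limma's test, with 0 of 5 at an unadjusted p under 0.05. The median of the tested values was 6.11 to 6.18 on every array. The counts in this paragraph stand beside 8.64% of all probe sets called lower and 7.31% called higher. Of 7 macrophage markers 4 fell, *Adgre1* (−0.51), *Cd68* (−0.28), *Itgam* (−0.24) and *Fcgr1* (−1.41), while *Csf1r*, *Lyz2* and *Mertk* did not pass. Their summed linear level was 26615 to 26934 with RANKL and 22377 to 23543 with RANKL + rGDF11. All 7 had mean levels of 8.18 or more, and among rows above the median level 21.3% were called lower. Of 7 signs of stress 6 fell (5 whichever array was left out) and 1, *Gadd45a* (0.27), rose, a call lost in 5 of the 6 fits that left out 1 array, with *Atf3* (−1.94) and *Txnip* (−1.50) in front. Markers of plasmacytoid dendritic cells, a strong source of interferon, passed limma's test in 0 of 4 cases (1, *Cox6a2* at −0.42, at an unadjusted p under 0.05), with a summed level of 186 to 218 with RANKL and 159 to 203 with RANKL + rGDF11. Of the neutrophil markers 2 of 7 were higher with rGDF11, *S100a8* and *Ngp*. Their list had a summed level of 739 to 846 against 1109 to 1310, of which *Ngp* was the largest part. Of the stromal markers 2 of 4 were higher, *Col1a1* and *Col1a2* (312 to 360 against 439 to 529). Of the dendritic cell markers 1 of 4 was higher, *Flt3* (142 to 147 against 151 to 185). The other markers of these lists did not pass. None of the B cell, T and NK cell or erythroid markers passed with or without adjustment. The part of these differences in the fall of the effectors was not tested.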

How the data were processed

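Expression was read from total RNA of 6 BMM cultures, 1 Affymetrix Mouse Gene 1.0 ST array each. The authors normalized the arrays by the robust multichip average (RMA) and deposited 1 log2 value per probe set. The submitters' processing notes name Transcriptome Analysis Console 3.0. RMA already holds background correction and normalization across arrays, and it can compress folds. Scan batches are not known from the sources.

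Of 35556 rows, 21789 had 1 gene symbol, 1621 several and 12146 none, by the platform annotation. RefSeq held 21698 of the 21789, and 0 were renamed. The 23410 rows with a symbol went into 1 limma fit (version 3.58.1, R 4.3.3; lmFit, then eBayes with no trend, group as the one term, two-sided, Benjamini-Hochberg over all 23410). Calls used an adjusted p under 0.05 or a fold change of 1.5 with p under 0.01. A gene with several rows entered by the brightest. The fit was tested on simulated arrays. The 10 genes and all lists were chosen with earlier results of these data known, so counts and medians describe them and no list test was made. The genes named are the 10, their families, *Ifnb1*, *Ifnar1*, *Ifnar2*, *Stat2*, *Irf9*, *Irf7*, the 4 largest differences of each other list, the 5 most alike genes, reference genes and *Pmepa1*. Genes named where a count was 5 or fewer, and genome neighbours, were chosen after their values were seen. Promoter windows were RefSeq's (GRCm38.p6). Protein sequences were not used here. Some items that the rule would name are not reported here.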

Additional observations from a re-analysis of the deposited data

How the results depend on the processing

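In 15 alternatives (other rows tested, 2 other normalizations, a mean-variance trend, the methods' t-test, a block for replicate numbers, the mean over probe sets, a fold change of 2 and each array left out), each of the 10 genes with a value kept its direction and its call, with a highest adjusted p of 0.0147. *Mx1* and *Mx2* had no value among rows above the median level, which left 8 genes with a median difference of −2.73 in place of −2.36. With 1 array left out the median lay between −2.58 (without RANKL + rGDF11 replicate 1) and −2.20. The pathway genes outside the 10 called lower numbered 36 to 46. Those called higher, 3 as reported, numbered 4 among rows above the median level. They numbered 2 with each array centred on its median and 2 with the mean over probe sets. Over all rows of the table they numbered 1, and by the methods' t-test 1. With 1 array left out they numbered 1 to 2. The count was 1 without RANKL replicate 1 or 3 or any of the RANKL + rGDF11 replicates. The cause was not tested. Over all rows 4.96% of probe sets were called lower and among rows above the median level 21.3%, against 8.64%. Whether the replicate numbers pair the samples is not known. Correlations of same-numbered deviations were 0.064, 0.33 and −0.00083, against −0.32 to 0.27 for the other pairs. By these correlations 3 of 6 samples were closest to their own number, which with 3 arrays per group cannot settle the pairing. With the replicate block 10 of 10 genes, 8.30% of probe sets and 40 pathway genes were called lower and 3 higher. Protein identity between family members was not run. The 3 arrays per group and the missing detection calls limit the values of the dimmest probe sets.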
